A study of Mus musculus with 14 samples.

Results

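KMF tumorspheres were compared with tumorspheres of the FAK knockout clone KT13 (FAK KO), with 3 RNA samples of each line and all 35275 genes of the deposited expression table. These are 6 of the 14 samples of the series, and 11893 genes were expressed highly enough to be tested. KMF is a mouse ovarian carcinoma line of the C57Bl6 strain, obtained by passage of ID8 cells, an ovarian surface epithelial line, through mice. KMF samples are labelled wildtype and FAK KO samples FAK-/-, the knockout having been made by CRISPR/Cas9 targeting of Ptk2 exon 4 in KMF cells. All samples came from cells grown without anchorage in PromoCell XF tumorsphere medium for 5 days, with no drug. The FAK KO line is a single clone of KMF cells, so loss of FAK and any difference that came with the choice of that clone cannot be told apart. The other 8 samples came from lines made from the same clone, which express GFP-FAK (FAK-WT, n = 3), GFP-FAK R454 without kinase activity (FAK-R454, n = 2) or ΔGSK β-catenin (n = 3). Their levels are given below only beside those of KMF and FAK KO cells.

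Focal adhesion kinase (FAK) is a cytoplasmic tyrosine kinase that integrins and growth factor receptors activate. It phosphorylates itself, recruits Src, and signals through adaptors such as p130Cas and paxillin to cell movement, survival and proliferation. Its close relative Pyk2 is the product of Ptk2b. In ovarian carcinoma, cells shed into the peritoneal fluid grow as floating spheres, and FAK has been studied there as a kinase that tumor cells use without attachment to matrix.

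The 6 libraries held between 26075863 and 35289859 fragments counted on genes, and between 11484 and 11579 genes were above 1 FPKM in each, FPKM being the fragment count of a gene corrected for gene length and library depth. Across the tested genes, log2 expression of pairs of samples of the same line had Pearson r between 0.990 and 0.995, and pairs of samples of different lines between 0.937 and 0.944, as a description of the libraries. Both lines expressed keratin genes and ovarian surface or mesothelial genes, with mean levels of 309 and 317 for Krt8, 89.4 and 97.8 for Wt1, 66.2 and 70.2 for Msln and 80.2 and 83.5 for Gata4 FPKM in KMF and FAK KO cells. Pax8, a marker of Müllerian epithelium, was near 0 in both, at 0.0545 and 0.10 FPKM. Of 10 fibroblast markers, Col3a1 (2.61) and Pdgfra (1.55) were higher in KMF and Dcn (-1.57) in FAK KO cells, while 5, among them Col1a2, Thy1 and Lum, were under 0.1 FPKM in both lines, and the sum was 81.5 to 101 FPKM in KMF and 96.9 to 136 FPKM in FAK KO samples. Of 17 tested lineage markers, 6 were higher in KMF and 3 in FAK KO cells at any fold, and none passed the fold threshold given below. Of 10 endothelial markers, 7 were under 0.1 FPKM in both lines, Kdr among them at 0 in all 6 samples, while Tek (0.72) and Esam (0.82) were higher in KMF cells below the fold threshold, and the sum was 54.4 to 56 FPKM in KMF and 32.1 to 33.6 FPKM in FAK KO samples. The part of these markers in the results was not tested. The defining leukocyte gene Ptprc was listed at 0 in all 6 samples. Summed over 19 leukocyte markers, expression was between 8.11 and 8.82 FPKM in KMF and between 7.21 and 7.81 FPKM in FAK KO samples.

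Ptk2 mRNA was lower in FAK KO than in KMF cells by less than the fold threshold. Ptk2 (ENSMUSG00000022607, mouse GRCm38 chromosome 15, 73205105 to 73423191, minus strand) measured 24.8, 24.2 and 23.9 FPKM in the KMF samples and 20.5, 17.6 and 18.9 FPKM in the FAK KO samples. No FAK KO value reached the lowest KMF value, and the difference passed the test (log2 difference 0.36, standard error 0.07, adjusted p = 0.00329, limma with Benjamini-Hochberg adjustment). Counts over the whole gene do not see a small insertion or deletion in one exon, so the Ptk2 level neither checks nor contradicts the knockout label. The Pyk2 gene Ptk2b went the other way. Its values were 6.47, 6.1 and 5.03 FPKM in the KMF samples and 7.71, 9.47 and 8.44 FPKM in the FAK KO samples, with all FAK KO samples above all KMF samples (log2 difference -0.54, standard error 0.11, adjusted p = 0.00464, limma).

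Over the whole transcriptome the lines differed in both directions to a like extent. A gene is called here where limma's adjusted p is under 0.05, the log2 difference on the log2(FPKM + 0.1) scale is at least 1 in size, and the mean is above 1 FPKM in the higher line. At any fold means that only the adjusted p is asked for. Of the 11893 genes tested, 472 (3.97%) were called higher in KMF and 481 (4.04%) higher in FAK KO cells, together 8.01%. At any fold, 2749 (23.1%) were higher in KMF and 3412 (28.7%) in FAK KO cells. The 6 values of a gene did not overlap between the lines for 7231 genes (60.8%), and for 949 of the 953 called genes (7.98% of those tested). The median log2 difference of all genes tested was -0.05. Large differences were few, since 112 genes called higher in KMF and 139 called higher in FAK KO cells differed by at least 4-fold and 9 and 14 by at least 16-fold. A mean under 0.1 FPKM in the lower line was seen for 16 of the genes called higher in KMF and 18 of those called higher in FAK KO cells. The p-values measure the spread between 3 RNA samples per line, and the labels do not say whether these were separate cultures. All adjusted p in the text are from limma with Benjamini-Hochberg adjustment over the 11893 genes, and differences are KMF minus FAK KO.

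**Figure D1:**
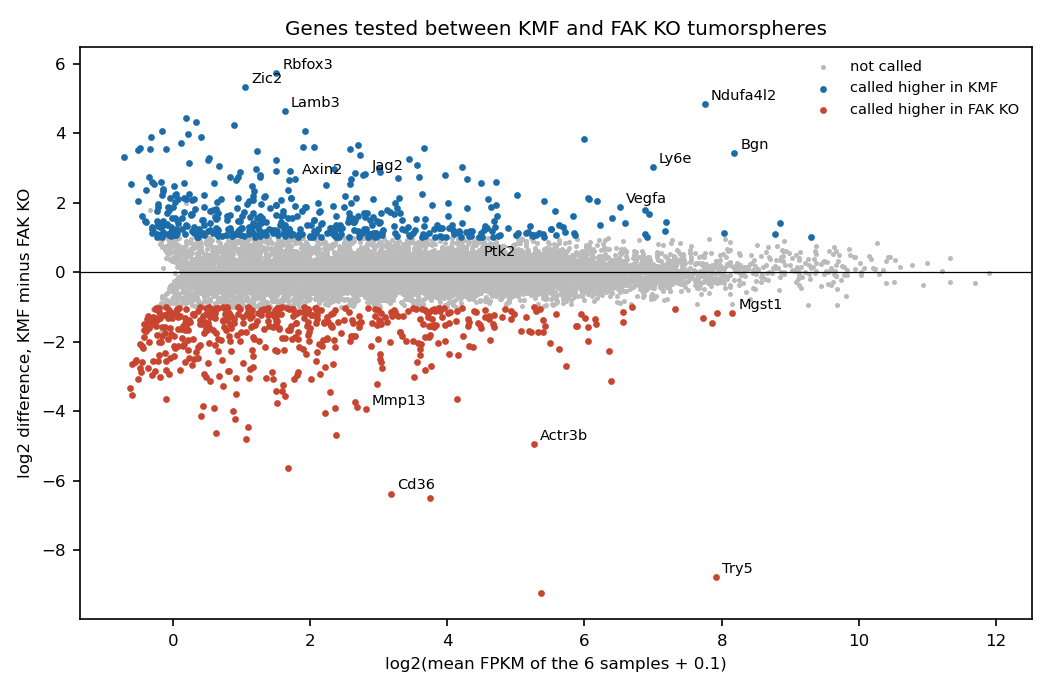
Each point is 1 of 11893 genes tested; the x axis is the log2 of the mean FPKM over the 6 samples plus 0.1, and the y axis the log2 difference KMF minus FAK KO. The 472 genes called higher in KMF (blue) and 481 called higher in FAK KO (red) span all levels, and the largest differences reach 5.74 for Rbfox3 and -9.24 for Try4.

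Among 31 tested FAK signaling partners, 8 were higher in KMF and 10 in FAK KO cells at any fold, and 1 in each direction was called. These shares are close to the 23.1% and 28.7% at any fold, and lie below the 3.97% and 4.04% called, of all genes tested. Tln2, which encodes talin-2, a link between integrins and actin, measured 6.29, 6.38 and 8.07 FPKM in the KMF samples and 2.98, 2.9 and 2.47 FPKM in the FAK KO samples (log2 difference 1.28, standard error 0.12, adjusted p = 6.33e-05). Efs, an adaptor of the p130Cas family, measured 3.95, 3.39 and 2.4 FPKM in the KMF samples and 8.35, 9.94 and 10.8 FPKM in the FAK KO samples (log2 difference -1.57, standard error 0.17, adjusted p = 1.38e-04). The samples of the 2 lines did not overlap for either gene. The p130Cas gene Bcar1 was higher in KMF cells and its relative Nedd9 in FAK KO cells, with log2 differences of 0.54 and -0.63. The kinases Fyn (-0.79), Src (-0.25) and Yes1 (-0.29) were all higher in FAK KO cells (adjusted p up to 0.0466). Paxillin (Pxn), with a difference of -0.28, did not pass (adjusted p = 0.0713).

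Of 12 tested integrin genes, Itga10 and Itgb8 were called. Itga10, the α10 subunit of a collagen-binding integrin, was at 31.4, 28.7 and 38.8 FPKM in the KMF samples and 3.8, 3.8 and 4.2 FPKM in the FAK KO samples. That is the largest integrin difference (log2 difference 3.02, standard error 0.11, adjusted p = 4.57e-07), and no KMF value came near the FAK KO values. Itgb8, the β8 subunit that binds latent TGF-β, was at 3.01, 2.91 and 4.04 FPKM in the KMF samples and 10.3, 8.07 and 7.9 FPKM in the FAK KO samples (log2 difference -1.38, standard error 0.15, adjusted p = 1.15e-04). The abundant subunits Itgb1 and Itga6 had log2 differences of 0.16 and 0.10 that did not pass (adjusted p = 0.168 and 0.267). Among 18 tested cadherin, catenin and junction genes, Dsp (desmoplakin) was called higher in KMF cells, and Cdh10, Cldn3 and Dsg2 higher in FAK KO cells, with log2 differences of 1.38 for Dsp, -2.89 for Cdh10, -1.56 for Cldn3 and -1.15 for Dsg2 (adjusted p up to 5.24e-04). The calls in FAK KO cells numbered 2 with pseudocount 1 in place of 0.1, where Dsg2 was at -0.90. With each chromosome centred on its own median 2 were called in each line, and Dsg2 was at -0.71. Over members with mean FPKM above 5, 1 was called in each line. Ctnnb1, which encodes β-catenin, measured 197, 195 and 207 FPKM in the KMF samples and 148, 139.5 and 146 FPKM in the FAK KO samples (log2 difference 0.47, standard error 0.06, adjusted p = 3.50e-04). Cdh2 (N-cadherin) was higher in FAK KO cells, with a log2 difference of -0.76 (adjusted p = 3.48e-05). Cdh1 (E-cadherin) was too low to be tested, at 0.746, 0.825 and 0.71 FPKM in the KMF samples and 0.075, 0.164 and 0.0564 FPKM in the FAK KO samples.

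The 12 protein-coding genes with the largest difference in favour of KMF included Rbfox3 and Zic2. Rbfox3, an RNA-binding splicing factor of neurons, was at 5.88, 5.69 and 4.84 FPKM in the KMF samples and 0, 0.0122 and 0 FPKM in the FAK KO samples, which is 1 fragment against 1576 over the 3 samples of each line. Zic2, a zinc finger transcription factor of the developing nervous system, was at 4.43, 4.12 and 3.31 FPKM in KMF samples and listed at 0 in all 3 FAK KO samples. Against a floor of 3 fragments over those samples it was at least 268-fold lower there. Both genes were thus detected almost only in KMF cells of these 2 lines. The widely used kinase gene Ilk was also listed near 0, with means of 0.0346 and 0.0108 FPKM, so a value near 0 says only how the gene is listed.

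Gata5 and Foxf1, transcription factors of endoderm and mesenchyme, were at 2.55, 2.25 and 2.13 FPKM in the KMF samples and 0.0507, 0.0117 and 0 FPKM in the FAK KO samples for the former and 3.8, 4.03 and 2.44 FPKM in the KMF samples and 0.138, 0.0635 and 0.0592 FPKM in the FAK KO samples for the latter. Their log2 differences were 4.34 and 4.23 (adjusted p = 4.05e-06 and 5.37e-06). Lamb3, the β3 chain of laminin-332 of epithelial basement membranes, was at 5.67, 4.84 and 7.05 FPKM in the KMF samples and 0.17, 0.122 and 0.113 FPKM in the FAK KO samples (log2 difference 4.65, standard error 0.19, adjusted p = 6.77e-07). The values of these genes are low in every FAK KO sample and well separated from KMF. Rbp7, a retinoid-binding protein, and Bcat1, which transaminates branched-chain amino acids, had log2 differences of 4.08 and 3.71. Npy, a neuropeptide, and Limch1, an activator of non-muscle myosin, followed with 3.97 and 3.91 (adjusted p of these 4 up to 1.23e-05). Npy rests on 2 fragments in FAK KO and 111 in KMF samples, a ratio of 50.6 with an exact 95% interval of 13.7 to 423 that covers counting error only. Gm9312 was at 1.43, 1.49 and 1.86 FPKM in KMF and listed at 0 in the FAK KO samples.

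Abundant mRNAs among these 12 were Ndufa4l2 and Ly6a. Ndufa4l2, a mitochondrial protein induced by hypoxia, was at 419.7, 341 and 486 FPKM in the KMF samples and 20.7, 19.4 and 7.26 FPKM in the FAK KO samples (log2 difference 4.84, standard error 0.35, adjusted p = 1.25e-05). FAK KO replicate 3 was the lowest of all, and the lines were far apart. Ndufa4l2 overlaps Shmt2 on the opposite strand, which was also called higher in KMF cells (1.17). Ly6a (Sca-1), a surface antigen of mouse stem and progenitor cells, was at 108, 111 and 137 FPKM in the KMF samples and 8.87, 8.63 and 7.22 FPKM in the FAK KO samples (log2 difference 3.83, standard error 0.11, adjusted p = 1.59e-07). In the lines made from the clone, Ndufa4l2 had means of 43.1 FPKM with ΔGSK β-catenin, 99.4 with GFP-FAK and 41.6 with GFP-FAK R454, and Ly6a of 0.559 FPKM with ΔGSK β-catenin, 21 with GFP-FAK and 11.4 with GFP-FAK R454. Zic2, Rbfox3 and Limch1 were at or under 0.0801 FPKM in all of those lines.

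In the other direction, the 12 genes with the largest difference in favour of FAK KO cells included Try4, Try5, Cd36 and Actr3b. Try5 and Try4, neighbouring trypsinogen genes on chromosome 6, were at 0.773, 0.939 and 1.34 FPKM in the KMF samples and 442, 538 and 467 FPKM in the FAK KO samples for Try5 and 0.0859, 0 and 0.0354 FPKM in the KMF samples and 76.3, 87.2 and 83.7 FPKM in the FAK KO samples for Try4. The 2 genes are near-identical copies, so the share of fragments each received is uncertain, while both were far higher in all FAK KO samples. Try4 rests on 3 fragments in KMF and 5537 in FAK KO samples, a ratio of 2023 with an exact 95% interval of 692 to 9813. Cd36, a receptor that takes up fatty acids and binds thrombospondin, was at 0.0579, 0.0804 and 0.238 FPKM in the KMF samples and 21.9, 15.2 and 16.3 FPKM in the FAK KO samples (log2 difference -6.38, standard error 0.28, adjusted p = 9.77e-07). Actr3b, a subunit of the actin-branching Arp2/3 complex, was at 2.58, 2.35 and 2.06 FPKM in the KMF samples and 76.5, 71.8 and 74.3 FPKM in the FAK KO samples (log2 difference -4.94, standard error 0.09, adjusted p = 2.43e-08). Both were low in all KMF samples and high in all FAK KO samples.

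Ces1d is a carboxylesterase, Enpep an aminopeptidase that cleaves angiotensin and Slc14a1 a urea transporter, and their log2 differences were -5.62, -4.69 and -4.24. Tmem255a and Vopp1 had -4.47 and -4.63 (adjusted p of these 5 up to 1.51e-06). Speer4a (-6.51) and Prl2c3 (-4.81) belong to families of close copies and are uncertain for that reason. Wfdc10 (-4.15) rests on 2 fragments in KMF samples against 94. The levels of these genes in the lines made from the clone were not alike. Vopp1 had means of 4.14 FPKM with ΔGSK β-catenin, 3.08 with GFP-FAK and 3.39 with GFP-FAK R454, near the FAK KO mean of 2.89. Actr3b had means of 4.65 FPKM with ΔGSK β-catenin, 5.29 with GFP-FAK and 27.4 with GFP-FAK R454, and Speer4a of 0.061 FPKM with ΔGSK β-catenin, 0.159 with GFP-FAK and 10.9 with GFP-FAK R454, where FAK KO cells had 26.5 FPKM.

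**Figure D2:**
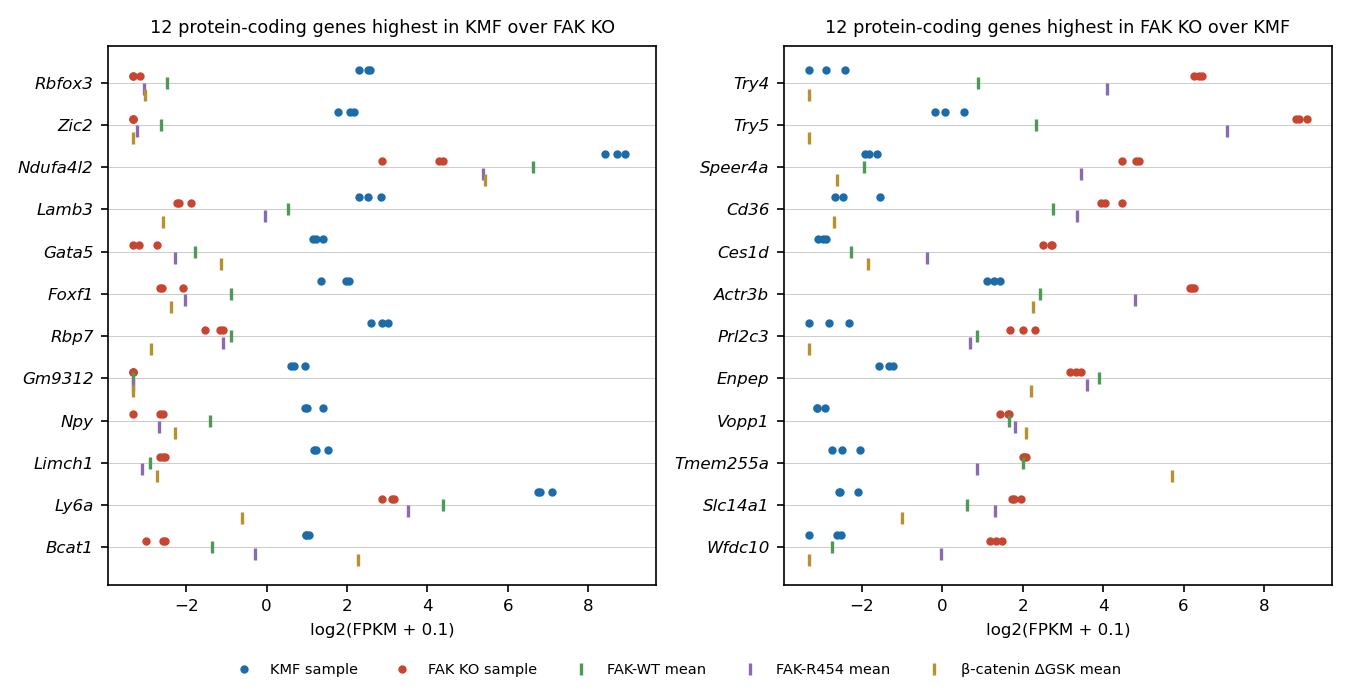
Expression as log2(FPKM + 0.1) of the 12 protein-coding genes most in favour of KMF (left) and of FAK KO cells (right); dots are the 3 samples of each line and ticks the means of the lines made from the clone. The genes were chosen for values that do not overlap, so the dots of the lines lie apart in every row by that rule, with log2 differences from Rbfox3 (5.74) to Bcat1 (3.71) and from Try4 (-9.24) to Wfdc10 (-4.15).

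Of 36 tested hypoxia and glycolysis genes, 19 were higher in KMF and 4 in FAK KO cells at any fold, and 10 were called, all in KMF, with a list median of 0.56. When oxygen is low, hypoxia-inducible factors (HIF) bind a short element with the core ACGTG and raise genes of glycolysis, lactate export and blood vessel growth. Promoters (250 bases before to 50 after the start, RefSeq, GRCm38.p6) were at hand for 31 tested members, and 21 of them held ACGTG on either strand, against 21.8% of 27025 genes with a promoter. They are shown for 3 of the called genes with the matched letters in capitals, for a mitophagy protein (Bnip3), the lactate exporter MCT4 (Slc16a3) and a HIF prolyl hydroxylase (Egln3):
Bnip3, chr7:138909457-138909756, minus strand: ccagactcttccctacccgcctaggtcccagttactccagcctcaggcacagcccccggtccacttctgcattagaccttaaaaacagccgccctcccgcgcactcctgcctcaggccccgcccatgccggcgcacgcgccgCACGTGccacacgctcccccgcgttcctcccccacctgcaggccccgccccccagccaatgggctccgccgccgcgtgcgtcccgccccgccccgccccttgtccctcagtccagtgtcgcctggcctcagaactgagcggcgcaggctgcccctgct
Slc16a3, chr11:120948817-120949116, plus strand: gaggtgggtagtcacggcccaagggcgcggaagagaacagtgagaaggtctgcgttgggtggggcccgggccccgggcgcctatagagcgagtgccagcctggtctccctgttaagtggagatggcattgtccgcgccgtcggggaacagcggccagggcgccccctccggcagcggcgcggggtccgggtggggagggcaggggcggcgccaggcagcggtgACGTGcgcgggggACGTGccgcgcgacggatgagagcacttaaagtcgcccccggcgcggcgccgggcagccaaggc
Egln3, chr12:54203825-54204124, minus strand: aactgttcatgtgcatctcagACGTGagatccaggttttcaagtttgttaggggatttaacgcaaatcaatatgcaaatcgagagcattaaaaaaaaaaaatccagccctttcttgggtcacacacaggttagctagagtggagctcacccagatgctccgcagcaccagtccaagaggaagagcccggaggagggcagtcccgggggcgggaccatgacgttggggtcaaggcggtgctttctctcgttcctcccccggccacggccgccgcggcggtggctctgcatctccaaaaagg
In Bnip3 the match is a palindrome and is read on both strands. Among the called members with a promoter, 6 of 7 held a match. A match is a description of letters, and no binding was measured.

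Slc16a3 measured 19.5, 17.6 and 24.9 FPKM in the KMF samples and 3.98, 3.44 and 1.85 FPKM in the FAK KO samples (log2 difference 2.76, standard error 0.25, adjusted p = 5.03e-05). Bnip3 was at 29.98, 30.4 and 55.4 FPKM in the KMF samples and 7.49, 6.9 and 4.43 FPKM in the FAK KO samples (log2 difference 2.58, standard error 0.26, adjusted p = 8.58e-05), and Vegfa, the vascular endothelial growth factor, at 133, 113 and 186 FPKM in the KMF samples and 41, 43.6 and 31.5 FPKM in the FAK KO samples (log2 difference 1.87, standard error 0.18, adjusted p = 7.05e-05). In all 3 genes KMF replicate 3 was the highest sample and FAK KO replicate 3 the lowest. The same held for KMF replicate 3 in 9 of the 10 called genes and for FAK KO replicate 3 in 8 of 10. Without KMF replicate 3 the list median was 0.43, and without FAK KO replicate 3 it was 0.44. These fits called 10 and 9 members, with Aldoc at 0.98, adjusted p = 0.00507 without FAK KO replicate 3. Oxygen in the cultures was not measured, and its part in the difference was not tested.

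Epas1 (HIF-2α) measured 31, 34.4 and 26.5 FPKM in the KMF samples and 7.78, 8.14 and 9.08 FPKM in the FAK KO samples (log2 difference 1.86, standard error 0.10, adjusted p = 3.26e-06), with the samples of each line close together. Hif1a, which encodes HIF-1α and is regulated mainly as protein, had means of 35.2 and 36.1 FPKM and a log2 difference of -0.03 (adjusted p = 0.793). The other called members had log2 differences of 1.93 for Ndrg1, 1.48 for Car9, 1.41 for Egln3, 1.26 for Pfkp and 1.23 for Aldoc (adjusted p up to 0.00295). Car9 lost its call with pseudocount 1, at 0.69, and the list then had 9 calls. Glycolytic enzymes of the trunk pathway were higher in KMF cells by less than the fold threshold, among them Pkm (0.83), Eno1 (0.75), Pgk1 (0.64) and Ldha (0.60), each with adjusted p up to 0.0252. The glucose transporter Slc2a1 (0.15), Hk2 (-0.01) and Gapdh (0.26) did not pass. Slc2a3, Car12, Pfkfb3 and Kdm3a were higher in FAK KO cells, with differences between -0.44 and -0.27.

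Of 43 tested DNA replication genes, 35 were higher in KMF and none in FAK KO cells at any fold, and the list median was 0.50. Replication starts where the origin complex and Cdt1 load the Mcm2 to Mcm7 helicase, and many of these genes carry sites for E2F factors. In bulk RNA, fewer cells in S phase and less of an mRNA per cell cannot be told apart. The 6 members that passed the fold threshold were Cdt1, Mcm3, Mcm5, Prim1, Lig1 and Chtf18, and their number was 3 with pseudocount 1. The E2F motifs TTTGGCGC and TTTCGCGC were found on either strand in 10 of 33 members with a promoter, against 0.929% of 27025 genes, and in 4 of the 6 called members. The promoters of 3 of these are shown, with matches in capitals, for subunits of the helicase and its loader:
Mcm5, chr8:75109259-75109558, plus strand: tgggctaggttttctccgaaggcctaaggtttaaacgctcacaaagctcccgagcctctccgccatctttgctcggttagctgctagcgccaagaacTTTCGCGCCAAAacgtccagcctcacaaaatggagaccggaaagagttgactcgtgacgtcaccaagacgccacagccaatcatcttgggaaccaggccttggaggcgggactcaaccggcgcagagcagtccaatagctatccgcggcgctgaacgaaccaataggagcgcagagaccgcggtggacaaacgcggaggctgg
Mcm3, chr1:20820263-20820562, minus strand: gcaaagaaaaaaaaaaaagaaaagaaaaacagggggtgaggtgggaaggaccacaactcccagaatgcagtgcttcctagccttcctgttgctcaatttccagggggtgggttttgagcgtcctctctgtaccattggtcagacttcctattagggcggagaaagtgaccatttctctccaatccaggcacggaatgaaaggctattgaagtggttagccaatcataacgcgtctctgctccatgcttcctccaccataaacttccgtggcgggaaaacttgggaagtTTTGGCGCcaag
Cdt1, chr8:122567765-122568064, plus strand: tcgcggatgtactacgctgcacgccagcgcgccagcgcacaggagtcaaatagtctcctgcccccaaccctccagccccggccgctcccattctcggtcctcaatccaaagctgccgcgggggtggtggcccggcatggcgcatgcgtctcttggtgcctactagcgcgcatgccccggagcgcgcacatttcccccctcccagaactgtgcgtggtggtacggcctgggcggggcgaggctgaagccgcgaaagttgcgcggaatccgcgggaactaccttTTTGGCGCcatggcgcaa
In Mcm5 the 2 matches overlap, 1 on each strand. Since many genes of this list are known to carry such sites, its share follows in part from how the list was made. No binding was measured, and the part of E2F in the difference was not tested. Among 33 tested mitosis genes with a promoter, 1 held a match.

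Mcm5 measured 27.3, 27.5 and 24.9 FPKM in the KMF samples and 10.6, 12.3 and 12.6 FPKM in the FAK KO samples (log2 difference 1.16, standard error 0.08, adjusted p = 1.20e-05). Mcm3 was at 29.3, 28.2 and 26.6 FPKM in the KMF samples and 11.7, 12.9 and 12 FPKM in the FAK KO samples (log2 difference 1.19, standard error 0.07, adjusted p = 3.79e-06). Cdt1 was at 21, 21.5 and 16.3 FPKM in the KMF samples and 7.69, 9.15 and 7.72 FPKM in the FAK KO samples (log2 difference 1.24, standard error 0.12, adjusted p = 6.24e-05), and the lines did not overlap for any of these genes. The primase subunit Prim1, the DNA ligase Lig1 and the clamp loader subunit Chtf18 had log2 differences of 1.1 for Prim1, 1.04 for Lig1 and 1.02 for Chtf18. Their calls are close to the threshold. Chtf18 was at 0.95 without KMF replicate 1, 0.98 without KMF replicate 2 and 0.95 without FAK KO replicate 1, and Prim1 at 0.99 without FAK KO replicate 2. The remaining helicase genes Mcm2, Mcm4 and Mcm6 were higher in KMF cells by 0.62, 0.62 and 0.74, and Mcm7 by 0.18 (adjusted p up to 0.0311). Pcna, the sliding clamp, was at 128 ± 5.33 FPKM in KMF and 104 ± 2.69 FPKM in FAK KO cells (SD, n = 3 each), with a log2 difference of 0.30 (adjusted p = 0.00394).

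Mitosis genes had the highest median of the pathway lists. Of 43 tested, 41 were higher in KMF and 1 in FAK KO cells at any fold, with a median of 0.75 and 3 calls. Ccna2 (cyclin A2) measured 25.8, 24.3 and 24.5 FPKM in the KMF samples and 10.4, 10.6 and 11.5 FPKM in the FAK KO samples (log2 difference 1.19, standard error 0.07, adjusted p = 3.16e-06), and Cdc25b, a phosphatase that activates Cdk1, 38.8, 36.3 and 34.8 FPKM in the KMF samples and 16.8, 17.6 and 18.1 FPKM in the FAK KO samples (log2 difference 1.06, standard error 0.07, adjusted p = 5.66e-06). Pkmyt1, which holds Cdk1 inactive, had a difference of 1.08, and 0.95 without FAK KO replicate 1. Members below the fold threshold included Ube2c (0.98), Plk1 (0.87), Ccnb2 (0.86), Top2a (0.75) and the proliferation marker Mki67 (0.75), all higher in KMF cells (adjusted p up to 6.94e-05). Mki67 was at 12.1, 13.2 and 13.6 FPKM in the KMF samples and 7.52, 7.55 and 8.0 FPKM in the FAK KO samples, with no overlap. The exception was Pttg1 (securin), at 15.3, 17.1 and 17.7 FPKM in the KMF samples and 23.2, 22.9 and 22.3 FPKM in the FAK KO samples (log2 difference -0.45, standard error 0.07, adjusted p = 9.57e-04). Mad2l1 (0.15) did not pass. Leaving out any 1 sample gave list medians between 0.72 and 0.77 for mitosis and between 0.47 and 0.55 for replication genes.

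Of 29 tested genes that act in G1 or are targets of p53, 8 were higher in KMF and 11 in FAK KO cells at any fold, with 1 call, not far from the 23.1% and 28.7% of all genes tested and the 4.04% called in FAK KO cells. The median of -0.10 was -0.0409 without FAK KO replicate 1, -0.0549 with median-of-ratios scaling and -0.146 without FAK KO replicate 2. The call was Gadd45a, a stress gene that p53 induces, at 37.7, 34.8 and 39.6 FPKM in the KMF samples and 91.1, 81.6 and 83.9 FPKM in the FAK KO samples (log2 difference -1.19, standard error 0.07, adjusted p = 4.80e-06). Ccng1 and Mdm2, further p53 targets, were higher in FAK KO cells by less than the fold threshold (-0.91 and -0.44, adjusted p = 6.62e-05 and 8.24e-04). Cdkn1a, which encodes the inhibitor p21 and is also a p53 target, was at 108, 105 and 109.6 FPKM in the KMF samples and 97.9, 112 and 105 FPKM in the FAK KO samples (log2 difference 0.04, adjusted p = 0.647), and Trp53 itself had a difference of -0.11 (adjusted p = 0.218). Cyclin D1 (Ccnd1) was higher in KMF cells (0.33) and cyclin D2 (Ccnd2) in FAK KO cells (-0.85, adjusted p up to 0.00141). Of 71 tested DNA repair genes, 27 were higher in KMF and 11 in FAK KO cells at any fold. The called ones, all in KMF, were the p53-induced ubiquitin ligase Rnf144b (1.86), Rmi2 (1.17), the helicase Recql4 (1.11), the exonuclease Exo1 (1.04) and Bard1 (1.03), the partner of Brca1. The study named Recql4, Rnf144b and Pkmyt1 of the mitosis list in FAK-WT against FAK KO cells, which shares the FAK KO samples. The calls of Recql4, Exo1 and Bard1 missed the fold threshold at 0.97, 0.98 and 0.999 without FAK KO replicate 1, FAK KO replicate 2 and KMF replicate 2. The calls of the repair list numbered 1 with pseudocount 1 and 0 over members with mean FPKM above 5, Rmi2 being at 0.57 in the former, and Exo1 (0.84) and Bard1 (0.83) missed the threshold with chromosomes centred.

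**Figure D3:**
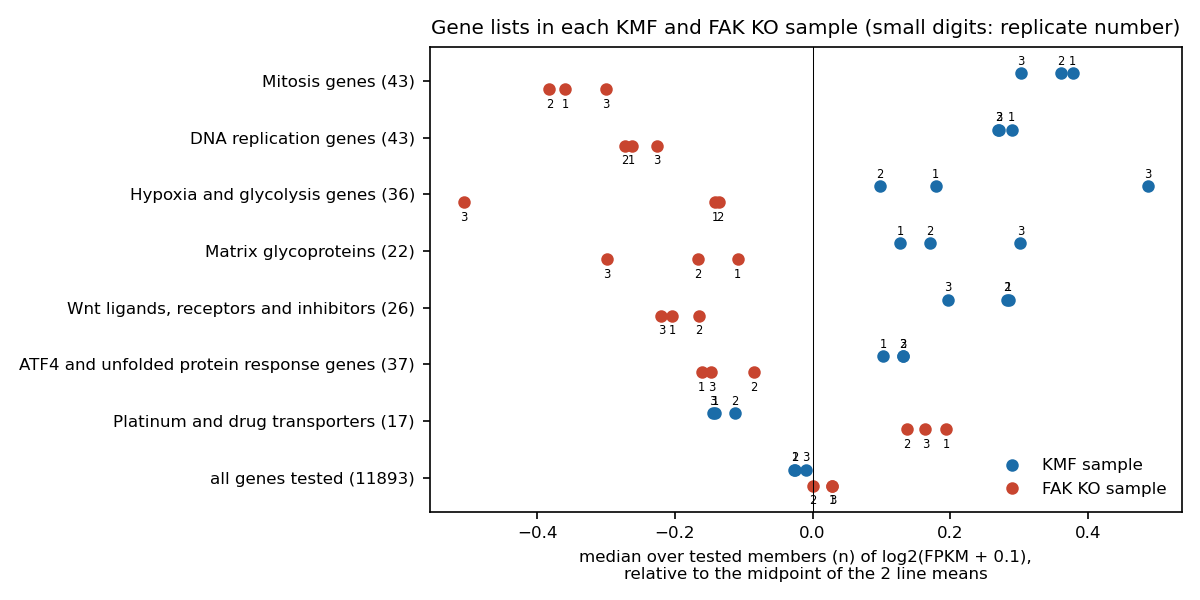
For each gene list, the median over its tested members (number in brackets) of log2(FPKM + 0.1) relative to the midpoint of the KMF and FAK KO means, with 1 dot per sample and its replicate number. Mitosis genes lie between 0.30 and 0.38 in KMF and between -0.38 and -0.30 in FAK KO samples, and hypoxia genes spread most, with replicate 3 at 0.49 in KMF and -0.51 in FAK KO cells.

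The extracellular matrix that the lines transcribed differed gene by gene. Among glycoproteins, 13 of 22 tested members had higher mRNA in KMF and 3 in FAK KO cells at any fold, with a median of 0.44 (0.116 with no filter) and 6 and 1 calls. Fbln1, a fibulin of elastic fibres and basement membranes, measured 20.6, 20.2 and 18.2 FPKM in the KMF samples and 1.85, 1.99 and 2.06 FPKM in the FAK KO samples (log2 difference 3.26, standard error 0.08, adjusted p = 9.10e-08). Fibrillin-1 (Fbn1), Emilin2, thrombospondin-1 (Thbs1), fibulin-2 (Fbln2) and elastin (Eln) followed with log2 differences of 2.08 for Fbn1, 1.88 for Emilin2, 1.71 for Thbs1, 1.69 for Fbln2 and 1.35 for Eln (adjusted p up to 8.96e-04). Emilin1 was the only one called higher in FAK KO cells (-1.32). Fibronectin (Fn1) measured 64.2, 72.8 and 75 FPKM in the KMF samples and 60.7, 59.1 and 47.3 FPKM in the FAK KO samples, a difference of 0.35 that passed without the fold threshold (adjusted p = 0.0226) but not without FAK KO replicate 3 (0.23, adjusted p = 0.075) or without KMF replicate 2 (0.33, adjusted p = 0.0679). In a fit of all 5 lines it did not pass either (0.35, adjusted p = 0.16). Of the laminins, Lamb3 (above) was called, and Lamc1 (0.90) and Lamb1 (0.61) were higher in KMF cells at any fold.

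Of 18 tested collagens, 4 were called in each direction. Fibrillar Col5a2 measured 6.1, 5.97 and 8.39 FPKM in the KMF samples and 0.386, 0.452 and 0.572 FPKM in the FAK KO samples (log2 difference 3.6, standard error 0.18, adjusted p = 1.64e-06) and Col3a1 44.5, 39 and 51 FPKM in the KMF samples and 9.12, 6.16 and 6.68 FPKM in the FAK KO samples (log2 difference 2.61, standard error 0.15, adjusted p = 3.63e-06). The neighbouring collagen VI genes Col6a2 and Col6a1 were also higher in KMF cells, with 2.36 and 1.54. Higher in FAK KO cells were Col22a1 (-3.52), Col18a1 (-1.41), Col20a1 (-1.06) and Col23a1 (-1.02), all under 4 FPKM, and these calls numbered 2 with pseudocount 1 and 0 over members with mean FPKM above 5. Col20a1 and Col23a1 are near the threshold, at -0.99 without KMF replicate 1 for the former and -0.84 without KMF replicate 3 and -0.97 without FAK KO replicate 3 for the latter. Basement membrane Col4a1 and Col4a2, at 61.9 and 82.1 FPKM in KMF cells, differed by 0.36 and 0.55.

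Proteoglycans were split as well, with 3 and 2 calls among 10 tested. Biglycan (Bgn), a small leucine-rich proteoglycan, was at 525, 509 and 557 FPKM in the KMF samples and 53.2, 44.8 and 49.1 FPKM in the FAK KO samples (log2 difference 3.44, standard error 0.08, adjusted p = 3.95e-08), which made it among the most abundant mRNAs that differed. Its relative decorin (Dcn) went the other way, at 30.5, 29.6 and 39 FPKM in the KMF samples and 122, 89.2 and 85.9 FPKM in the FAK KO samples (log2 difference -1.57, standard error 0.15, adjusted p = 5.82e-05). Prelp (2.1) and the glypican Gpc6 (1.83) were higher in KMF cells, and the glypican Gpc4 (-1.48) in FAK KO cells. Bgn had means of 4.67 FPKM with ΔGSK β-catenin, 141 with GFP-FAK and 119.9 with GFP-FAK R454, and Dcn of 38.6 FPKM with ΔGSK β-catenin, 113 with GFP-FAK and 108 with GFP-FAK R454.

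Of 32 tested enzymes that cut or cross-link matrix and their inhibitors, 5 were called in FAK KO and 3 in KMF cells, or 4 and 4 with each chromosome centred on its own median or without KMF replicate 1. Mmp13, a collagenase, was at 0.913, 0.576 and 0.763 FPKM in the KMF samples and 15.5, 10.01 and 13.8 FPKM in the FAK KO samples (log2 difference -3.95, standard error 0.19, adjusted p = 1.64e-06). Its neighbour Mmp10 (stromelysin-2) had -3.02, the aggrecanase relative Adamts9 -1.85, membrane-bound Mmp15 -1.36 and the lysyl oxidase Loxl3 -1.05. Loxl3 was at -0.96 without KMF replicate 1. Higher in KMF cells were Timp3, a protease inhibitor bound to matrix, at 105, 101 and 116 FPKM in the KMF samples and 44.4, 40.7 and 40.8 FPKM in the FAK KO samples (log2 difference 1.36, standard error 0.07, adjusted p = 2.76e-06), Mmp17 (1.44) and Loxl2 (1.55). At any fold, 8 were higher in KMF and 13 in FAK KO cells, and the median was -0.13, or -0.00763 over members with mean FPKM above 5, -0.0622 with no filter, -0.0852 with median-of-ratios scaling and -0.0886 with chromosomes centred.

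Transcription factors and targets tied to cell shape were called singly. Among 10 tested factors of epithelial-mesenchymal transition, the epithelial factor Elf3 (1.74) and Foxc1 (1.45) were called higher in KMF cells, and Snai1 and vimentin (Vim) were higher at any fold (0.70 and 0.46). Of 27 tested YAP and TAZ program genes, 10 (37%) were higher in KMF and 4 (14.8%) in FAK KO cells at any fold. The shares of all genes tested were 23.1% and 28.7%. The called members were Nt5e (-1.85), the surface enzyme CD73, and Gadd45a, both in FAK KO cells, where 4.04% of all genes were called. With chromosomes centred the counts at any fold were 7 and 6, and 1 member was called in each line. The much used targets Ctgf and Cyr61 had differences of 0.96 (adjusted p = 0.00211) and 0.16 (adjusted p = 0.1). In the cytoskeleton, Csrp1, a LIM protein that binds α-actinin, was at 128, 123 and 128 FPKM in the KMF samples and 39.96, 45.3 and 42.4 FPKM in the FAK KO samples (log2 difference 1.57, standard error 0.07, adjusted p = 8.15e-07), and Myh10, the heavy chain of non-muscle myosin IIB, at 2.26, 2.57 and 2.85 FPKM in the KMF samples and 12.8, 14.6 and 13.2 FPKM in the FAK KO samples (log2 difference -2.36, standard error 0.10, adjusted p = 9.45e-07). These 2 were the calls among 15 tested contractile genes, in opposite directions.

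Wnt ligands bind Frizzled receptors and keep β-catenin from degradation, and β-catenin then raises feedback genes such as Axin2. Axin2 measured 6.11, 6.0 and 5.54 FPKM in the KMF samples and 0.819, 0.81 and 0.839 FPKM in the FAK KO samples (log2 difference 2.7, standard error 0.10, adjusted p = 4.87e-07), with values in each line close together and no overlap. It was the call among 11 tested Wnt targets, of which 7 were higher in KMF and 1 in FAK KO cells at any fold, with a median of 0.43, or 0.277 with chromosomes centred and 0.152 with no filter. Tcf7 (0.86), Notum (0.85) and Rnf43 (0.58) were higher in KMF cells below the fold threshold. Axin2 had means of 109.6 FPKM with ΔGSK β-catenin, 2.05 with GFP-FAK and 0.773 with GFP-FAK R454. Among ligands, receptors and inhibitors, 15 of 26 tested members had higher mRNA in KMF and 3 in FAK KO cells at any fold, with a median of 0.42, or 0.267 with no filter. Wnt1, the receptor Fzd9, Wnt10b and Wnt9a were called in KMF cells with 2.14 for Wnt1, 1.97 for Fzd9, 1.1 for Wnt10b and 1.07 for Wnt9a, each under 4 FPKM on average, and these calls numbered 2 with pseudocount 1 and 0 over members with mean FPKM above 5. Wnt9a was at 0.95 without FAK KO replicate 2. Wnt5a and Wnt5b, ligands mostly of β-catenin-independent signaling, were higher in FAK KO cells. Wnt5a was at 1.85, 1.75 and 2.08 FPKM in the KMF samples and 7.27, 7.66 and 7.4 FPKM in the FAK KO samples (log2 difference -1.92, standard error 0.09, adjusted p = 1.64e-06) and Wnt5b at 2.13, 2.05 and 1.61 FPKM in the KMF samples and 6.67, 8.04 and 7.44 FPKM in the FAK KO samples (log2 difference -1.89, standard error 0.13, adjusted p = 7.60e-06). Wnt4 measured 20.7 ± 0.221 FPKM in KMF and 13.8 ± 0.707 FPKM in FAK KO cells (SD, n = 3 each), with a difference of 0.58 (adjusted p = 1.38e-04).

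In the Notch pathway 2 ligands, a receptor and a feedback gene were called in KMF cells. Jag2, a ligand, was at 12.8, 12.6 and 11 FPKM in the KMF samples and 1.4, 1.8 and 1.71 FPKM in the FAK KO samples (log2 difference 2.82, standard error 0.11, adjusted p = 6.59e-07), and the ligand Dll1 at 8.18, 8.78 and 6.75 FPKM in the KMF samples and 1.16, 1.47 and 1.31 FPKM in the FAK KO samples (log2 difference 2.5, standard error 0.13, adjusted p = 2.32e-06). Notch3 measured 4.15, 4.13 and 3.95 FPKM in the KMF samples and 0.805, 0.806 and 0.822 FPKM in the FAK KO samples (log2 difference 2.2, standard error 0.11, adjusted p = 1.64e-06), and the feedback gene Nrarp 6.01, 5.59 and 4.38 FPKM in the KMF samples and 1.08, 1.41 and 1.54 FPKM in the FAK KO samples (log2 difference 1.91, standard error 0.16, adjusted p = 2.99e-05). All 4 were separated between the lines. The ligand Jag1 was higher in FAK KO cells at any fold (-0.24), and the target Hes1 did not pass (0.10, adjusted p = 0.375). Of 14 tested members, 6 were higher in KMF and 2 in FAK KO cells at any fold. Dll1 had means of 6.69 FPKM with ΔGSK β-catenin, 1.35 with GFP-FAK and 0.821 with GFP-FAK R454, and Jag2 of 7.41 FPKM with ΔGSK β-catenin, 7.82 with GFP-FAK and 2.78 with GFP-FAK R454.

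Growth factors were called in both directions, 5 in KMF and 8 in FAK KO cells of 40 tested, or 4 and 5 over members with mean FPKM above 5. Those in FAK KO cells included 3 neighbouring genes of EGF receptor ligands. Areg (amphiregulin) measured 7.09, 6.57 and 8.84 FPKM in the KMF samples and 36.5, 31.6 and 32.7 FPKM in the FAK KO samples (log2 difference -2.16, standard error 0.11, adjusted p = 2.39e-06), and Ereg (epiregulin) and Btc (betacellulin), which lie beside it on chromosome 5, had -2.06 and -1.54. Egfr itself was higher in KMF and Erbb2 in FAK KO cells, with log2 differences of 0.32 and -0.29 (adjusted p = 0.0108 and 0.0252). Igfbp2, a binding protein of insulin-like growth factors, was at 1.0, 0.658 and 0.694 FPKM in the KMF samples and 9.48, 13.7 and 11.5 FPKM in the FAK KO samples (log2 difference -3.73, standard error 0.18, adjusted p = 1.50e-06), and Igfbp3 had -2.63, while Igfbp7 was higher in KMF cells (1.17). Fgf1 (-1.83), the neurotrophin receptor Ngfr (-1.62) and Flt4 (-1.01) were also called in FAK KO cells. Flt4 lost its call in 3 of the fits without 1 sample, at -0.99, -0.96 and -0.95 without KMF replicate 1, KMF replicate 3 and FAK KO replicate 2. On the KMF side, beside Vegfa, were its receptor Flt1 (1.42), the PDGF receptor Pdgfra (1.55) and Fgf18 (1.57).

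TGF-β and BMP genes were divided, with 7 calls in KMF and 6 in FAK KO cells of 39 tested. The calls in KMF numbered 5 with pseudocount 1 and 4 over members with mean FPKM above 5, and those in FAK KO cells 3 with pseudocount 1 and 6 over members with mean FPKM above 5. Their median of -0.06 was close to that of all genes, ranged over -0.085 to -0.00211 when 1 sample was left out (nearest 0 without KMF replicate 3), and was 0.00374 with no filter on low values. The BMP antagonist Grem1 was at 1.53, 1.44 and 1.86 FPKM in the KMF samples and 0.0801, 0.0277 and 0.0344 FPKM in the FAK KO samples (log2 difference 3.55, standard error 0.26, adjusted p = 1.37e-05). Bmp6 (1.89), Bmp7 (1.69), the coreceptor Tgfbr3 (1.36) and Tgfb3 (1.13) were higher in KMF cells as well, as were Inhbb (1.06) and Bmp4 (1.05). In FAK KO cells Gdf6, a BMP-type ligand, was at 1.47, 1.33 and 1.45 FPKM in the KMF samples and 12.5, 15.5 and 14.5 FPKM in the FAK KO samples (log2 difference -3.23, standard error 0.10, adjusted p = 2.10e-07). Gdf15 (-1.25), Inhba (-1.24), Tgfbr1 (-1.12), Bmp2 (-1.12) and Id3 (-1.0) followed. Some of these calls lie close to the fold threshold. Inhbb was at 0.99 without FAK KO replicate 3, and Bmp4 at 0.98 without KMF replicate 3 and 0.99 without FAK KO replicate 3. Bmp2 was at -0.97 without KMF replicate 3, and Id3 at -0.92, -0.95 and -0.98 without KMF replicate 1, KMF replicate 2 and FAK KO replicate 2.

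Axon guidance cues and receptors, which many tissues use for cell positioning, gave 4 calls in each direction among 44 tested, or 2 in KMF and 1 in FAK KO cells over members with mean FPKM above 5. Of all genes tested, 3.97% and 4.04% were called. At any fold, 15 members (34.1%) were higher in KMF and 12 (27.3%) in FAK KO cells, against 23.1% and 28.7% of all genes tested. Sema3d (1.62), Efna1 (1.51), Slit2 (1.45) and the ephrin receptor Ephb4 (1.35) were higher in KMF cells. Sema3g (-3.24), Sema5a (-1.51) and the Slit receptors Robo2 (-2.92) and Robo4 (-1.48) were higher in FAK KO cells (adjusted p of the 8 up to 4.73e-04). Slit2 was thus higher in the line with less Robo2 mRNA. Of 35 tested immediate early and ERK feedback genes, 15 were higher in KMF and 6 in FAK KO cells at any fold. Egr1, a transcription factor induced within minutes of a growth signal, measured 14.1, 15.3 and 15.2 FPKM in the KMF samples and 5.15, 3.9 and 3.38 FPKM in the FAK KO samples (log2 difference 1.84, standard error 0.14, adjusted p = 1.49e-05), and Klf5 3.64, 3.73 and 3.21 FPKM in the KMF samples and 0.772, 0.802 and 0.685 FPKM in the FAK KO samples (log2 difference 2.09, standard error 0.13, adjusted p = 4.89e-06). Jun (0.78), Fos (0.77) and Klf4 (0.84) were higher in KMF cells below the fold threshold. Dusp5, a nuclear phosphatase of ERK, went the other way, at 32.4, 32.8 and 26.1 FPKM in the KMF samples and 79.3, 95.7 and 89.4 FPKM in the FAK KO samples (log2 difference -1.54, standard error 0.11, adjusted p = 9.16e-06), and Dusp6 did not pass (0.17, adjusted p = 0.0815).

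Of 37 tested genes of serine synthesis and ATF4 targets, 17 were higher in KMF and 3 in FAK KO cells at any fold. ATF4 is a transcription factor that amino acid shortage and stress in the endoplasmic reticulum turn on. Phgdh, the first enzyme of serine synthesis, measured 109, 111 and 103 FPKM in the KMF samples and 23.3, 25.2 and 24.4 FPKM in the FAK KO samples (log2 difference 2.14, standard error 0.06, adjusted p = 1.59e-07). Mitochondrial one-carbon enzymes Mthfd2 and Shmt2 had 1.3 and 1.17, and the stress genes Chac1, Atf5 and Trib3 had 1.95, 1.63 and 1.34 (adjusted p of these up to 1.15e-05). Atf4 itself was at 195, 192 and 226 FPKM in the KMF samples and 107, 109.7 and 103 FPKM in the FAK KO samples (log2 difference 0.93, standard error 0.08, adjusted p = 2.71e-05), below the fold threshold. The chaperones of the unfolded protein response in the same list, Hspa5 (-0.03), Hsp90b1 (-0.08) and Calr (0.08), did not pass. Phgdh had means of 74.4 FPKM with ΔGSK β-catenin, 47.7 with GFP-FAK and 46.4 with GFP-FAK R454.

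Myc measured 53.9, 55.3 and 43.5 FPKM in the KMF samples and 38, 35.7 and 36.7 FPKM in the FAK KO samples (log2 difference 0.46, standard error 0.09, adjusted p = 0.00371), with no overlap. Mycn was called in KMF cells (1.34) and the Mlx partner Mlxipl in FAK KO cells (-1.28). Myc is known to raise ribosome biogenesis genes, and its part here was not tested. At any fold, 18 of 46 such genes (39.1%) were higher in KMF and 6 (13%) in FAK KO cells. The shares of all genes tested were 23.1% and 28.7%. None of the 46 passed the fold threshold, and the median was 0.15. With chromosomes centred the counts were 10 and 3, with a median of 0.103. Those in KMF ranged from 12 to 18 when 1 sample was left out. In cholesterol and fatty acid synthesis 10 of 35 were higher in each line at any fold, close to the 23.1% and 28.7% of all genes tested, and Stard4 (1.11) and Hsd17b7 (1.01) were called in KMF cells. Hsd17b7 was at 0.86 without FAK KO replicate 2 and 0.98 without KMF replicate 3. The calls of this list numbered 0 with pseudocount 1, where Stard4 was at 0.93 and Hsd17b7 at 0.83. With chromosomes centred they numbered 1, Hsd17b7 being at 0.81.

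Platinum drugs enter and leave cells partly through copper transporters and are bound by glutathione and metallothioneins, and the ABC transporters pump out many other drugs. Of 17 tested transporters, 2 were higher in KMF and 11 in FAK KO cells at any fold, and the median was -0.33, or -0.169 over members with mean FPKM above 5. Abcb1a, which encodes P-glycoprotein, was at 0.399, 0.638 and 0.431 FPKM in the KMF samples and 4.83, 5.14 and 4.5 FPKM in the FAK KO samples (log2 difference -3.08, standard error 0.17, adjusted p = 2.99e-06), and its close copy Abcb1b had -1.92. Fragments shared by the 2 copies could have been split between them. Abcc3 (-1.5) and the cholesterol exporter Abca1 (-1.04) were called too. The calls in FAK KO cells fell from 4 to 1 with pseudocount 1 and 0 over members with mean FPKM above 5, with Abcc3 at -0.85, Abcb1b at -0.89 and Abca1 at -0.76 in the former. Abca1 was at -0.91, -0.96 and -0.99 without FAK KO replicate 3, KMF replicate 1 and KMF replicate 3. The copper transporters Slc31a1 (-0.57) and Atp7a (-0.41) were higher in FAK KO cells below the fold threshold. The folate carrier Slc19a1 was called in KMF cells (1.12), or 0.98 without FAK KO replicate 1. It overlaps Col18a1, which was called in the opposite direction.

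Among 42 tested glutathione and antioxidant genes, 13 were higher in KMF and 15 in FAK KO cells at any fold, not far from the 23.1% and 28.7% of all genes tested. Metallothionein Mt1 was at 91.8, 86.2 and 172 FPKM in the KMF samples and 28.8, 36.7 and 18.3 FPKM in the FAK KO samples (log2 difference 2.04, standard error 0.30, adjusted p = 6.88e-04), and Mt2 at 7.24, 7.15 and 21.3 FPKM in the KMF samples and 4.42, 6.07 and 1.86 FPKM in the FAK KO samples (log2 difference 1.46, standard error 0.49, adjusted p = 0.035). For both, KMF replicate 3 was the highest and FAK KO replicate 3 the lowest sample, and without either of them Mt2 no longer passed (0.94, adjusted p = 0.0747 without KMF replicate 3, and 0.98, adjusted p = 0.102 without FAK KO replicate 3). It also did not pass without FAK KO replicate 1 (1.59, adjusted p = 0.0573), with no filter, no trend or chromosomes centred (adjusted p = 0.0847, 0.0587 and 0.0537). Glutathione transferases were split. Gstt1 measured 6.38, 5.64 and 4.44 FPKM in the KMF samples and 0.782, 0.833 and 0.711 FPKM in the FAK KO samples (log2 difference 2.66, standard error 0.15, adjusted p = 3.28e-06) and Mgst2 had 1.52, while Gsta1 measured 49.3, 52.3 and 51.1 FPKM in the KMF samples and 139, 129 and 143 FPKM in the FAK KO samples (log2 difference -1.43, standard error 0.06, adjusted p = 1.11e-06) and Mgst1 had -1.17. The NRF2 target Nqo1 was higher in FAK KO cells (-0.69, adjusted p = 0.00108) and Hmox1 in KMF cells (0.74, adjusted p = 0.00596).

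Aldehyde dehydrogenases, whose activity is used to mark stem-like tumor cells, were even in number, with 7 of 18 tested higher in each line at any fold. That is 38.9% in each line, against 23.1% and 28.7% of all genes tested. There was 1 call in each direction, beside the 3.97% and 4.04% called over all genes tested. Aldh1b1 was called in KMF cells, at 4.39, 4.94 and 4.09 FPKM in the KMF samples and 1.75, 1.85 and 1.85 FPKM in the FAK KO samples (log2 difference 1.25, standard error 0.10, adjusted p = 2.78e-05). With pseudocount 1 it was at 0.96. The calls of the list in KMF cells numbered 0 there and over members with mean FPKM above 5. Aldh1l1, a folate enzyme, was called in FAK KO cells, at 0.288, 0.30 and 0.292 FPKM in the KMF samples and 5.12, 5.47 and 5.14 FPKM in the FAK KO samples (log2 difference -3.76, standard error 0.13, adjusted p = 2.83e-07). Aldh1a2 measured 0.836, 1.15 and 1.14 FPKM in the KMF samples and 0.484, 0.559 and 0.536 FPKM in the FAK KO samples (log2 difference 0.86, standard error 0.19, adjusted p = 0.00631) and the abundant Aldh1a1 had a difference of 0.40 (adjusted p = 9.93e-04). The pluripotency gene Pou5f1 was listed at 0 in all 6 samples, and Nanog, at 0.0955 and 0.0523 FPKM, was too low to be tested. Of 15 tested stem cell markers 9 were higher in KMF and 2 in FAK KO cells, among them Klf4 (0.84), Sox9 (0.56) and Amigo2 (0.72) on the KMF side and Cd24a (-0.74) and Nt5e on the FAK KO side. The study named Ndufa4l2, Klf5, Wnt4 and Amigo2 in FAK-WT against FAK KO cells, a comparison that shares the FAK KO samples with this one. The death genes Bnip3 and Bok were called in KMF cells among 17 tested BCL2 family members, with Bok at 359.9, 333 and 389 FPKM in the KMF samples and 157, 178 and 157 FPKM in the FAK KO samples (log2 difference 1.14, standard error 0.08, adjusted p = 1.34e-05).

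Surface antigens of the Ly6 family on chromosome 15 were called together in KMF cells. Ly6e measured 229.8, 238 and 213 FPKM in the KMF samples and 27.9, 27.9 and 27.8 FPKM in the FAK KO samples (log2 difference 3.02, standard error 0.06, adjusted p = 3.01e-08) and Ly6c1 9.74, 13.5 and 12.5 FPKM in the KMF samples and 0.512, 1.05 and 1.06 FPKM in the FAK KO samples (log2 difference 3.68, standard error 0.24, adjusted p = 7.53e-06), beside Ly6a above and Lynx1 (1.11). The spread within each line was small against the gap, most of all in Ly6e. These 4 are consecutive among the tested genes there, and the Ly6 genes resemble each other, so fragments may be shared. Cd59a, an inhibitor of complement on chromosome 2, was higher in FAK KO cells (-1.2). Ly6e had means of 65.8 FPKM with ΔGSK β-catenin, 51.7 with GFP-FAK and 30.9 with GFP-FAK R454.

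Immune genes were called in both directions. Of 29 tested interferon-stimulated genes Irf7 was called in KMF cells (1.23) and Oas2 in FAK KO cells (-2.55), a share no higher than the 3.97% and 4.04% called over all genes tested, and Irf7 was at 0.91 without FAK KO replicate 3. Of 20 tested antigen processing genes, the immunoproteasome subunit Psmb8 was called in KMF cells (1.56) and the lipid-presenting Cd1d1 in FAK KO cells (-2.64). These single calls are close to the 3.97% and 4.04% called over all genes tested. With pseudocount 1 Psmb8 was at 0.80, and the calls of this list in KMF cells numbered 0. The class I genes H2-K1 (0.69) and H2-D1 (0.47) were higher in KMF cells below the fold threshold. Cxcl5, a neutrophil chemokine, was at 3.18, 5.58 and 3.9 FPKM in the KMF samples and 0.281, 0.209 and 0.345 FPKM in the FAK KO samples (log2 difference 3.49, standard error 0.23, adjusted p = 7.53e-06), and Cxcl12 had 1.37. The alarmin Il33 was at 1.66, 1.96 and 2.41 FPKM in the KMF samples and 8.62, 7.64 and 7.55 FPKM in the FAK KO samples (log2 difference -1.94, standard error 0.13, adjusted p = 9.02e-06). Cxcl15 (-1.05) and Ccr10 (-1.04) were called in FAK KO cells with values near the threshold, Cxcl15 being at -0.93 without KMF replicate 1 and -0.88 without FAK KO replicate 1, and Ccr10 at -0.93 without KMF replicate 1 and -0.94 without FAK KO replicate 2.

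In lipid mediator genes, receptors were called in both directions. Lpar1, a receptor of lysophosphatidic acid, measured 1.23, 1.18 and 1.47 FPKM in the KMF samples and 0.187, 0.108 and 0.101 FPKM in the FAK KO samples (log2 difference 2.6, standard error 0.25, adjusted p = 5.98e-05). The lipid phosphate phosphatases Ppap2b and Ppap2a had 2.85 and 1.12. Higher in FAK KO cells were the prostaglandin receptors Ptger3 (-3.66) and Ptgfr (-2.26), and below the fold threshold the cyclooxygenase Ptgs2 (-0.80, adjusted p = 9.26e-04). Ptger3 was at 0.0492, 0.0342 and 0.027 FPKM in the KMF samples and 1.43, 1.72 and 1.75 FPKM in the FAK KO samples, so that it was barely detected in KMF cells. Of 14 tested Hox and cofactor genes, Hoxa6 (2.4) and Hoxc9 (2.24) were called, both in KMF cells and both under 2 FPKM in every sample.

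Further genes that the study named differed by less than the fold threshold. Dscc1, which helps to join sister chromatids, measured 2.3, 2.76 and 2.72 FPKM in the KMF samples and 1.68, 1.78 and 1.63 FPKM in the FAK KO samples (log2 difference 0.58, standard error 0.12, adjusted p = 0.00357), and the kinetochore gene Spc24 had 0.78 (adjusted p = 3.91e-05). The adhesion receptor gene Pvrl2, named by the study for its protein, had -0.16 and did not pass (adjusted p = 0.346). The study named them in comparisons of FAK KO cells with lines made from them, which have the FAK KO but not the KMF line in common with this one.

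**Figure D4:**
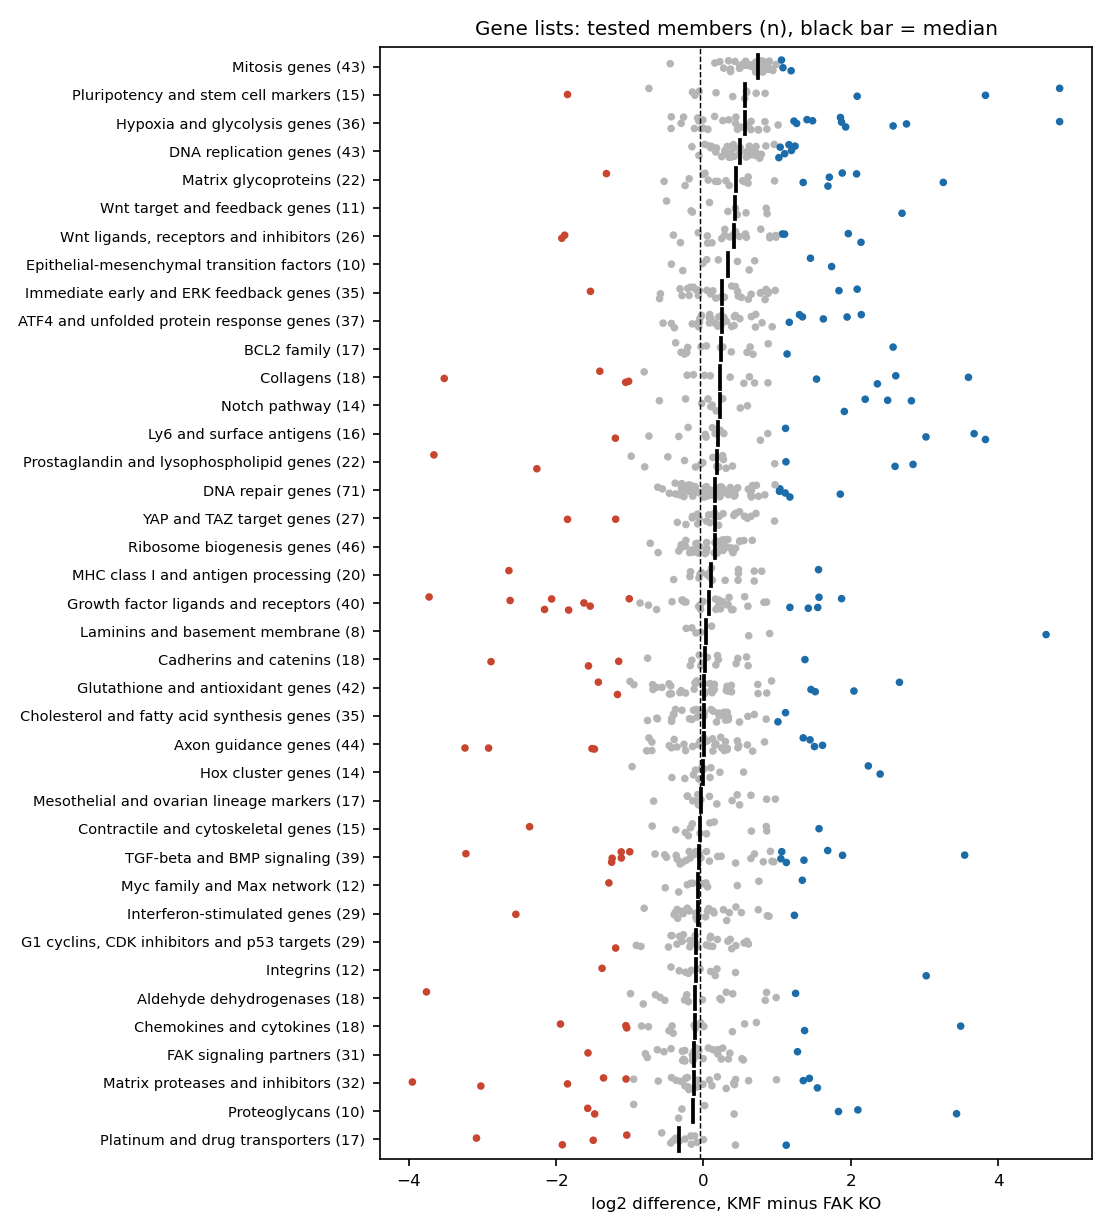
Each dot is a tested gene of a list with 8 or more tested (number in brackets) at its log2 difference KMF minus FAK KO, blue where called in KMF, red where called in FAK KO cells, with the list median as a black bar and the median of all genes (-0.05) as a dashed line. Medians run from -0.33 for drug transporters to 0.75 for mitosis genes.

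The difference between the lines also varied by chromosome. Tested genes of chromosomes 17, 3 and 1 had median log2 differences of 0.21, 0.21 and 0.19, in favour of KMF, and those of chromosomes 18, 6 and 19 had -0.38, -0.34 and -0.26, in favour of FAK KO cells, against -0.05 over all genes. Relative to all genes of the same sample, chromosome 18 lay between -0.18 and -0.16 in KMF and between 0.12 and 0.21 in FAK KO samples, without overlap. On chromosome 6, 576 genes were tested and 47 were called in FAK KO against 14 in KMF cells. On chromosome 17 the calls were 8 and 22 of 574 genes. Chromosome 15, which carries Ptk2 and Myc, had a median of 0.06. With every chromosome centred on its own median, 477 genes were called in KMF and 443 in FAK KO cells, of which 408 in each direction were also called without centring. Fn1 then differed by 0.15, adjusted p = 0.288. Centring ended the calls of 23 of the named genes, among them Mcm3 (0.995), Lig1 (0.95), Ccna2 (0.95), Gadd45a (-0.89), Dsg2 (-0.71), Mgst1 (-0.87) and Bok (0.94). Only mRNA was measured in these files, and data on the clone's DNA were not used here.

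**Figure D5:**
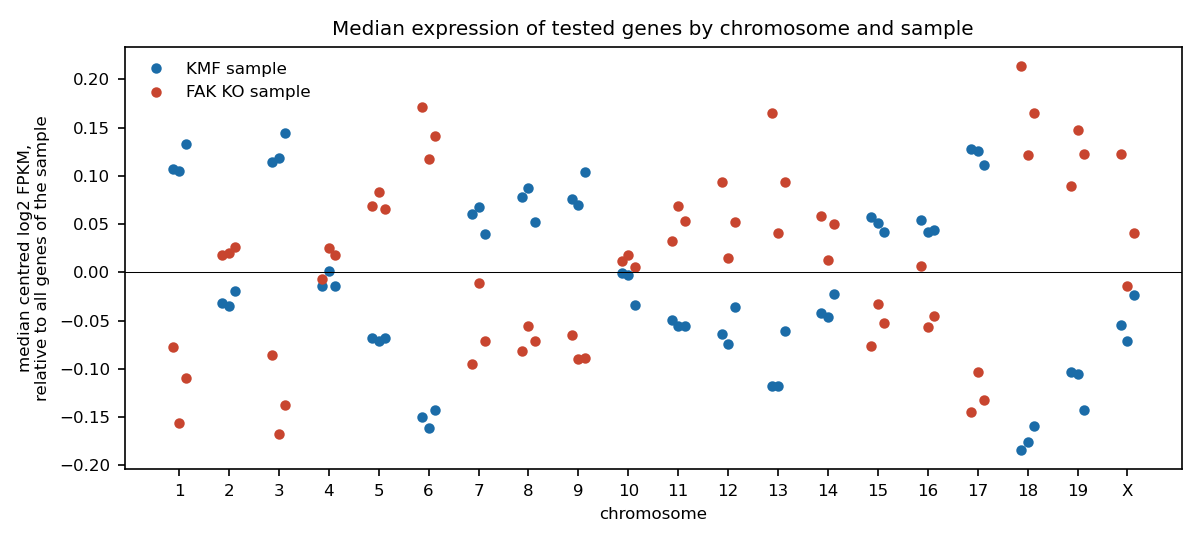
Median log2 expression of the tested genes of each chromosome, centred per gene over the 6 samples and relative to all genes of that sample, with 1 dot per sample. KMF and FAK KO samples lie apart on most chromosomes, most widely on chromosome 18, from -0.18 in a KMF sample to 0.21 in a FAK KO sample.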

How the data were processed

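RNA of tumorspheres was sequenced from poly-A libraries (NEBNext Ultra, not stated to keep strand). The deposited values are FPKM per gene, made by the authors from fragments counted on genes. The submitters' processing notes name mm10, CASAVA 1.8, STAR 2.5 and DESeq2, whereas the study's methods name TopHat2. Coordinates of the file overlapped GENCODE M21 (GRCm38) for 99.9% of 34490 matched gene IDs. Columns of the table that belong to no known sample numbered 0. Samples were grouped by their labels.

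Fragments recovered from FPKM and gene length came out whole within 0.01, and gave the depth. Genes with mean FPKM above 1 in KMF or FAK KO were tested with limma 3.58.1 (R 4.3.3, eBayes with trend) on log2(FPKM + 0.1), which understates differences of low genes, with Benjamini-Hochberg adjustment. The procedure was tested on simulated data with 200 changed genes. Exact 95% intervals and the floor of 3 fragments cover counting error only. Tables and figures used Python 3.11.15.

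Gene lists received counts and medians. Named genes are Ptk2, Ptk2b, the 12 called protein-coding genes with the largest non-overlapping difference in each direction, up to 6 called and the defining members of each list, and genes the study named. Members and lists were chosen with earlier results of these data known. Alternatives changed the pseudocount, filter, scaling, trend, samples fitted, block, test, fold threshold and chromosome centring, or left out 1 sample. Near-identical copies and overlapping genes are uncertain, since strand was not stated. Beside those noted in the text, Ctnnb1, Lig1, Cdc25b, Pkmyt1, Ccna2, Adamts9, Atf5, Loxl3, Fgf1, Wnt5b, Igfbp7, Vopp1 and Tmem255a overlap another expressed gene. Some results are not reported here.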

Additional observations from a re-analysis of the deposited data

How the results depend on the processing

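With pseudocount 1, 274 genes were called higher in KMF and 292 in FAK KO cells, against 472 and 481. With mean FPKM above 5 the calls were 236 and 223, with a log2 threshold of 0.5 they were 1334 and 1443, and at any fold 2749 and 3412. These follow from the construction of the alternatives. Under pseudocount 0.01, no filter, median-of-ratios scaling, no trend, a fit of all 5 lines, limma-voom on fragments and chromosome centring, the counts stayed between 462 and 527 for KMF and between 440 and 516 for FAK KO cells. Leaving out each sample in turn kept at least 426 of the 472 and 446 of the 481 calls, and gave for Ptk2 log2 differences of 0.30 to 0.41 (limma adjusted p 0.0022 to 0.0183). With replicate number as a block, 475 and 483 genes were called and Ptk2 was at 0.36 (adjusted p = 0.00704). Deviations of same-numbered samples had correlations of -0.131, 0.145 and -0.245, so that the numbers do not pair the samples. Cdkn1a, at 0.04, turned to -0.17 with chromosome centring (adjusted p = 0.0811) and to -0.0101 without FAK KO replicate 1 (adjusted p = 0.91), with a range of -0.0101 to 0.0843 when each sample was left out, and the cause was not tested. Over the named genes, 113 values of 51 genes lost their call, 41 of them with pseudocount 1 and 23 with chromosome centring, and 2966 kept direction and call. The medians of 16 of 42 lists changed sign under at least 1 setting, and those of mitosis, replication, hypoxia, Notch, Wnt, ATF4 and drug transporter genes did not. Depth limits genes with few fragments, of which Zic2, Rbfox3, Try4, Npy and Wfdc10 are given above with their fragments.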

Other observations

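The genes in the following lines were chosen after their values were seen. The most abundant called mRNAs included, on the KMF side, Bsg (basigin, a chaperone of lactate transporters), at 751, 662 and 1119.7 FPKM in KMF and 467, 498 and 290.2 FPKM in FAK KO samples, a log2 difference of 1.01 (limma adjusted p = 0.00739). The linker histone H1f0 was at 698, 709.6 and 606 FPKM in KMF and 233, 268 and 248 FPKM in FAK KO samples (1.42, adjusted p = 5.20e-06). On the FAK KO side were the mitochondrial malic enzyme Me2 (-1.45), the gel-forming mucin Muc5b (-1.16) and Maged2 (-1.31). Muc5b was at 137, 197 and 124 FPKM in KMF and 313, 355 and 338 FPKM in FAK KO samples, with no overlap.

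Called genes sometimes lay side by side among the tested genes. On chromosome 9, Dixdc1, Hspb2 and the small heat shock protein gene Cryab were all higher in KMF cells, with Cryab at 75.4, 71.9 and 71.7 FPKM in KMF and 20.9, 21.1 and 22.3 FPKM in FAK KO samples (1.76, adjusted p = 2.94e-07). On chromosome 2 the cystatin genes Cst12, Cst8 and Cst9 were higher in FAK KO cells, with Cst12 at 14.6, 11.8 and 15.8 FPKM in KMF and 97.5, 88.5 and 89.7 FPKM in FAK KO samples (-2.71). On chromosome 5 the guanylate-binding protein genes Gbp8, Gbp9 and Gbp4 were higher in FAK KO cells, with -1.6, -1.45 and -1.96. Cst12 and Gbp9 had means of 20.2 and 7.71 FPKM in FAK-WT cells.

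Among transcripts without a protein product, 22 lincRNAs were called in FAK KO and 8 in KMF cells of 177 tested, and 48 pseudogenes were called in KMF and 12 in FAK KO cells of 369 tested, beside 3.97% called in KMF and 4.04% in FAK KO cells over all genes. Fendrr, transcribed beside Foxf1, was at 1.21, 1.66 and 1.2 FPKM in KMF and 0.0276, 0 and 0.0445 FPKM in FAK KO samples. Hotairm1, of the HoxA cluster, went the other way, at 0.241, 0.553 and 0.636 and 5.45, 3.93 and 3.96 FPKM. Xist, the RNA that silences an X chromosome, was at 3.81, 4.55 and 4.25 FPKM in KMF and 22.9, 17.6 and 19.4 FPKM in FAK KO samples (-2.22, adjusted p = 1.64e-06), and the median log2 difference of tested X-linked genes was -0.13.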
